A study of Mus musculus with 3 samples.

Results

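FOXF1 is a forkhead transcription factor of the lung mesenchyme and its blood vessels, and the 1517 summits described here were listed in replicate 2 of a FOXF1 chromatin immunoprecipitation with no replicate 1 summit within 1 kb. They were chosen from the summit positions of both replicates on the nuclear chromosomes, and make up 2.48% of the 61172 replicate 2 summits and 1517 of 168550 summits in all. Both ChIP replicates were pools of 3 whole lungs from wild-type C57BL/6 embryos at embryonic day 18.5, and the control was a 2% input. The lungs were fixed in 1% formaldehyde, and 10 µg of chromatin was precipitated with 7 µg of antibody against FOXF1, a whole-tissue design that does not tell which cell type carried a site. Each entry is a single base with the authors' score, a −log10 significance against the input that depends on sequencing depth. No source used here gives that depth. The replicate 1 list held 107378 nuclear summits, so the members are the few that the shorter list has and the longer one does not have nearby. With 1 list per replicate, no comparison below carries a test, and exact 95% intervals cover counting error only.

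Forkhead factors bind short DNA elements with a core such as TGTTTAC and often act at enhancers far from the genes they regulate. In the lung, FOXF1 is known for its part in the growth of capillaries next to the air spaces, and heterozygous loss of the human gene causes alveolar capillary dysplasia. A summit marks the base of strongest signal within a called peak. The widths of the peaks were not analysed here.

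The promoters below are shown because each holds a member: those of Txnip, Mknk2, Plk2 and Clec14a hold the 4 highest scoring ones in any promoter window, Emcn is a marker of endothelium, and the member at Ptger4 lies farther from replicate 1 than that at any other promoter. Each run is the RefSeq window from 250 bases before to 50 bases after a listed transcription start on GRCm38.p6, the assembly of mm10, written 5′ to 3′ along the gene. Capitals mark the summit base and up to 10 bases on either side of it.
Txnip promoter, chr3:96557707-96558006, plus strand: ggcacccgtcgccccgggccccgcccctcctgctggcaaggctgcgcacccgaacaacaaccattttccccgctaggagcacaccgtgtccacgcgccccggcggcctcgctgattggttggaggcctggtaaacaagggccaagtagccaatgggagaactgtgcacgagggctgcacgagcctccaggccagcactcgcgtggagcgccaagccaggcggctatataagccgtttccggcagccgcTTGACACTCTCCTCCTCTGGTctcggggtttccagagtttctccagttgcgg
Mknk2 promoter, chr10:80676244-80676543, minus strand: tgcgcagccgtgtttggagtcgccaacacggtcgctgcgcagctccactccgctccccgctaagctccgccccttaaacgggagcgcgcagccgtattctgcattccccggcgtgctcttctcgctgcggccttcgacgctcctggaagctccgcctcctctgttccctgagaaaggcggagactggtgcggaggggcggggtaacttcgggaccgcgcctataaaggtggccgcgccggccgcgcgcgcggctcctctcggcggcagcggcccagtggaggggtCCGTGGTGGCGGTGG
Plk2 promoter, chr13:110394794-110395093, plus strand: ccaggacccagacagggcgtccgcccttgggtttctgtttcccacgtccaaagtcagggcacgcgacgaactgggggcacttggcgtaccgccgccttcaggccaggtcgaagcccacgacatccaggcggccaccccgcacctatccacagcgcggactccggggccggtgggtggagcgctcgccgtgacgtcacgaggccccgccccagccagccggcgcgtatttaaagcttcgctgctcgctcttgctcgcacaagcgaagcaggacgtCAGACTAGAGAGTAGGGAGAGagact
Clec14a promoter, chr12:58269209-58269508, minus strand: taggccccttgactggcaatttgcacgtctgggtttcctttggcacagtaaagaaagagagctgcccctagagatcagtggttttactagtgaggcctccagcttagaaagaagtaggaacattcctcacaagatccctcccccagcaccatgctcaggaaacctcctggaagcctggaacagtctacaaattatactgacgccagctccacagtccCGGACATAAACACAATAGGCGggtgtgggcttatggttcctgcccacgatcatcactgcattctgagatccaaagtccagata
Emcn promoter, chr3:137340828-137341127, plus strand: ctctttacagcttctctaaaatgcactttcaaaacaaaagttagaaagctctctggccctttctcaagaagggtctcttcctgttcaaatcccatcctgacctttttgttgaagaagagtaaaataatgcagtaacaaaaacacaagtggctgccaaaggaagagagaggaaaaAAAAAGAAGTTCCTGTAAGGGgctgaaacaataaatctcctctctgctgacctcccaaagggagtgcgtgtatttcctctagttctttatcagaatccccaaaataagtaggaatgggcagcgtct
Ptger4 promoter, chr15:5244138-5244437, minus strand: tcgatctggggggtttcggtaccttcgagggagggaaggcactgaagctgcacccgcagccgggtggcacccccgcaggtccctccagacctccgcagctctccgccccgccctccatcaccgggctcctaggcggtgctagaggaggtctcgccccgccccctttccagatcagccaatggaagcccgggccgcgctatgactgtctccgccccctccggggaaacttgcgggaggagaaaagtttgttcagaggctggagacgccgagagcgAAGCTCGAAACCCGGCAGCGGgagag
Forkhead cores were searched as the letters TGTTTAC, as the variant written TGTTTGC and as a further variant written TATTTAC. Of these 6 windows only that of Txnip held one of these spellings, on the opposite strand as GTAAACA, centred 126 bases from the summit. Other spellings were not searched, such as ATAAACA in the capitals at Clec14a, which differs from GTAAACA in its first letter. In all, 87 members lay in 101 promoter windows of 93 genes. A forkhead core was present in 9 of the 101 windows (8.91%, exact interval 4.16 to 16.2%), against 8.73% of the 6051 windows with another replicate 2 summit and 11.2% of all 32817 windows. The interval treats windows as independent, although some overlap and hold the same member. Counted by member, 8 of the 87 had a core in the window, centred within 50 bp of the summit for 2. The windows with a member were rich in G and C, with a median of 65.7%, against 62.7% in windows with another replicate 2 summit and 52.7% in all windows. The GC box GGGCGG was found in 59 of the 101 windows (58.4%), against 68.1% of windows with another replicate 2 summit and 35.6% of all windows. The AP-1 letters TGANTCA were found in 2.97% of windows with a member, 4.08% of those with another replicate 2 summit and 7.81% of all windows, and the letters CCAAT in 37.6%, 36.1% and 37.4% of them. Every motif was searched on both strands and counted by itself, also where it overlapped another. The letters of a motif describe the window and do not show a bound site.

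Few of the members stood alone. The nearest replicate 1 summit lay at a median of 1360 bp, within 1776 bp for 75% of members and within 2 kb for 1245 of 1517. Beyond 5 kb there were 53 members (3.49%, exact interval 2.63 to 4.55%), and beyond 100 kb there was 1. The reverse set was larger and farther away: 44924 replicate 1 summits (41.8% of that list) had no replicate 2 summit within 1 kb, and 62.0% of them had none within 5 kb. When the replicate 1 list was shortened to its 61172 highest summits, 5569 replicate 2 summits had none within 1 kb, so the number of members depends on the length of that list. The working name of a summit found in replicate 2 alone therefore holds at the distance of the rule and for only 53 members at 5 kb. At the edge of the rule the members closest to replicate 1 lay at 1001 bp, in Chst15, Bcor and Atp2b4 with scores of 15.5, 14.8 and 3.64. Among the summits just left out were those at 1000 bp, next to Adgrf1 and in Rbms3, with scores of 21.3 and 19.8. There were 301 members in the first 100 bp beyond the rule and 377 other summits in the last 100 bp before it, so the rule cuts through a continuous range of distances.

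**Figure D1:**
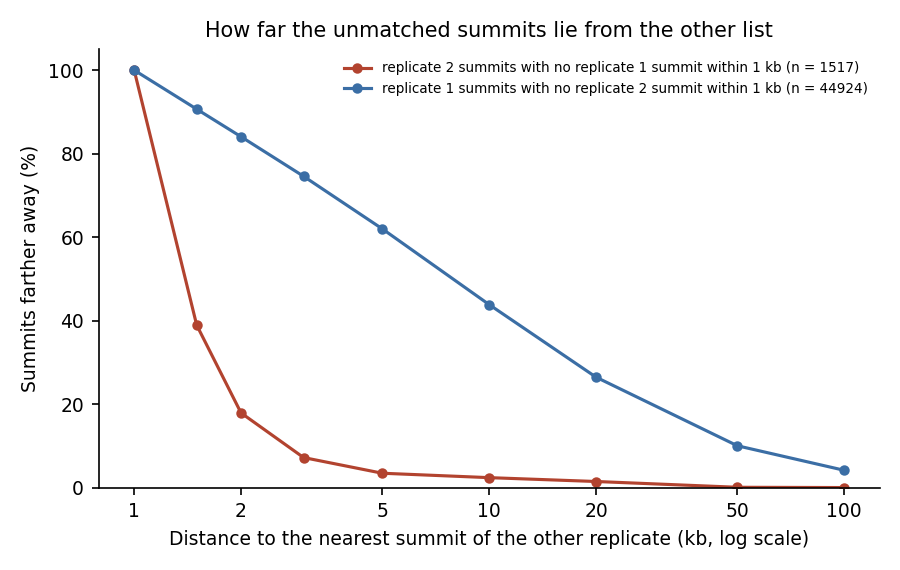
Share of unmatched summits (%) that lie farther from the nearest summit of the other replicate than the distance on the x axis (kb, log scale), for 1517 replicate 2 summits in red and 44924 replicate 1 summits in blue. At 5 kb the red line stands at 3.49% and the blue line at 62.0%.

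The members lay beside high replicate 1 summits. The replicate 1 summit nearest to a member had a median score of 78.1, against 43.1 for the one nearest to other replicate 2 summits and 19.9 over the whole replicate 1 list. In 706 cases (46.5%) it was among the highest 10% of the replicate 1 list, against 19.4% for other replicate 2 summits. The rule makes these comparisons unlike. For other replicate 2 summits the nearest replicate 1 summit lies within 1 kb, and within 100 bp for 51013 of them. For a member it lies farther off, at a neighbouring place. The replicate 1 summit nearest to a member was usually matched itself: in 1139 cases (75.1%, exact interval 72.8 to 77.2%) replicate 2 had a summit within 100 bp of it. In a further 207 (13.6%) a replicate 2 summit lay within 1 kb of it, and in 171 (11.3%) none did. In the 1139 cases the member was the lower of the pair of replicate 2 summits 1023 times (89.8%), with a median score of 13.6 against 50.4 for the matched summit. The most frequent kind of member was thus an additional, lower replicate 2 summit next to a high summit found in both replicates.

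Between 1 and 10 kb from a member there were on average 3.47 other replicate 2 summits and 4.26 replicate 1 summits, against 1.47 and 2.32 around other replicate 2 summits. Only 5.93% of members had no other replicate 2 summit at 1 to 5 kb, against 53.7% of other replicate 2 summits. The rule fixed part of these differences: the nearest replicate 1 summit of a member lies beyond 1 kb and is counted, while the one that matches another replicate 2 summit lies within 1 kb and is not.

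Member scores were below those of the rest of the list but covered a wide range. They ran between 2.19 and 149.5 with a median of 13.2 (95% interval 12.5 to 14.7), against 17.7 for the other replicate 2 summits. A score of at least 10 was reached by 922 members (60.8%), against 74.6% of the others, and a score of at least 100 by 7 members, against 895 others. Members made up 5.12% of the lowest score decile of replicate 2 (exact interval 4.58 to 5.70%), 3.07% of the next and 1.47% of the highest (1.18 to 1.81%). Between the third and the eighth decile the share lay between 1.99% and 2.47% with overlapping intervals. Among the chromosomes, 18 had the highest share, 93 of 2458 summits (3.78%, 3.06 to 4.62%), and chromosome 6 followed with 115 of 3580 (3.21%, 2.66 to 3.84%). Chromosome 15 had the lowest share of those with more than 1 summit, 45 of 2421 (1.86%, 1.36 to 2.48%). These intervals treat neighbouring summits as independent, although many lie close together.

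**Figure D2:**
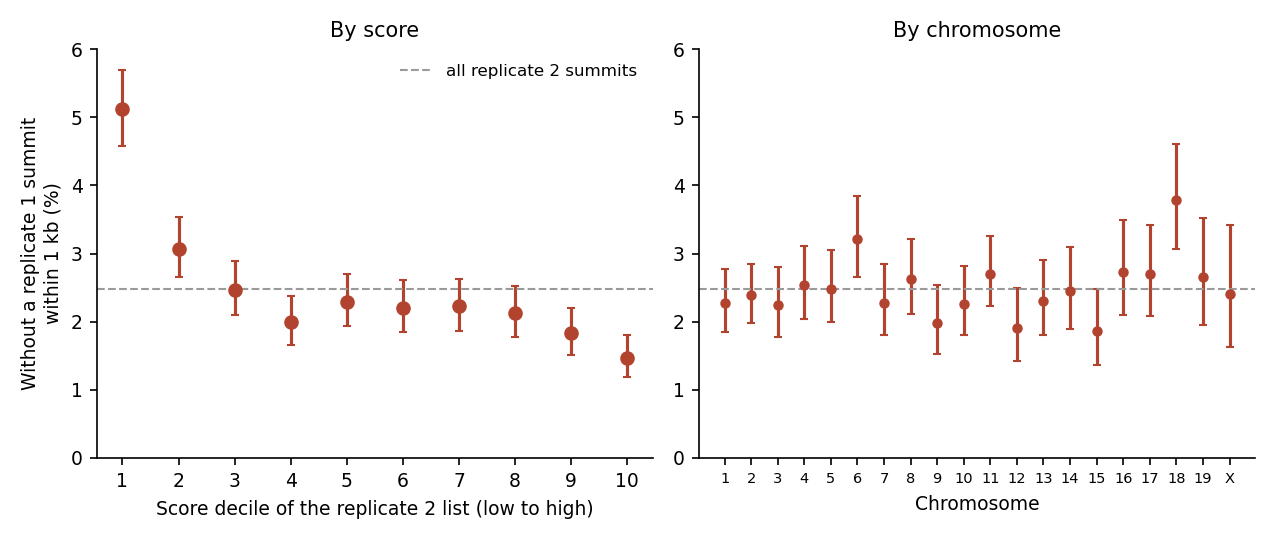
Share of replicate 2 summits (%) with no replicate 1 summit within 1 kb, by score decile of the replicate 2 list (left) and by chromosome (right, without Y, which had 1 replicate 2 summit), with exact 95% intervals as bars and the share over all replicate 2 summits, 2.48%, as a dashed line. The lowest decile stands at 5.12% and chromosome 18 at 3.78%.

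The highest members lay at gene starts and at distal regions alike. The highest of all, with a score of 149.5, was at chromosome 1 position 136784383, between genes and 58179 bp from Nr5a2, which encodes a nuclear receptor. Its nearest replicate 1 summit was 1948 bp away, had a score of 254.7 and lay 14 bp from another replicate 2 summit. The second, with 124.8, lay 8 bp inside Txnip, which encodes the thioredoxin-interacting protein, where the nearest replicate 1 summit was 2699 bp away. The next was 45 bp inside Mknk2, a kinase of a translation initiation factor, with 117.2, and its nearest replicate 1 summit was low in that list, at 11.0. Inside genes followed Arhgef26 with 113.6, and Nfib, a transcription factor of lung maturation, with 111.3. These 5 ranked between 63 and 526 among the 61172 replicate 2 summits.

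A member with a score of 111.2 lay 34 bp inside Plk2, a polo-like kinase, with the nearest replicate 1 summit 3912 bp away. A distal one on chromosome 17 at position 67514684 had 110.1 and lay 116281 bp from the nearest protein-coding gene end, that of Lrrc30. The member in Gna12, a G protein subunit, scored 99.6 and was 1029 bp from a replicate 1 summit of 4.10. In Neat1, the long noncoding RNA that builds paraspeckles, a member at chromosome 19 position 5845397 had 98.8. Clec14a, a lectin of endothelium, had a member 23 bp outside its end with 96.9, and the replicate 1 summit 1479 bp away scored 212.9. Ubb, a polyubiquitin gene, and Klf3, a repressor of the Kruppel-like family, closed the set of 12 with 92.7 each.

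The Neat1 and Malat1 neighbours on chromosome 19 held several members each. Neat1 contained 4 replicate 2 summits, of which 3 were members, and 6 replicate 1 summits. Malat1, an abundant nuclear long noncoding RNA, contained 4 replicate 2 summits, of which 3 were members, and 1 replicate 1 summit. Inside any long noncoding RNA gene lay 261 members (17.2%, exact interval 15.3 to 19.2%), against 11.6% of other replicate 2 summits.

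Around gene starts the members were shifted outward. By distance to the nearest start in the RefSeq promoter table, which does not list every gene, 139 members (9.16%, exact interval 7.76 to 10.7%) lay within 250 bp of a start, against 13.9% of other replicate 2 summits. At 1 to 5 kb on either side lay 424 members (27.9%, 25.7 to 30.3%), against 10.3%. Most of these were downstream, in the direction of transcription, with 316 members (20.8%), against 5.81% of other replicate 2 summits. Upstream there were 108 (7.12%), against 4.50%. For 235 of the 424 (55.4%, 50.6 to 60.2%) replicate 1 had a summit within 250 bp of that start, and for 217 (51.2%) both replicates had one. Since a member must lie over 1 kb from replicate 1 summits, and these are frequent at starts, part of this outward position follows from the rule. By gene ends, 17.3% of members had a protein-coding gene beginning or ending within 1 kb, against 19.0% of other replicate 2 summits. Deep inside protein-coding genes lay 55.3%, against 44.3%, and over 100 kb from any end 12.1%, against 17.1%.

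**Figure D3:**
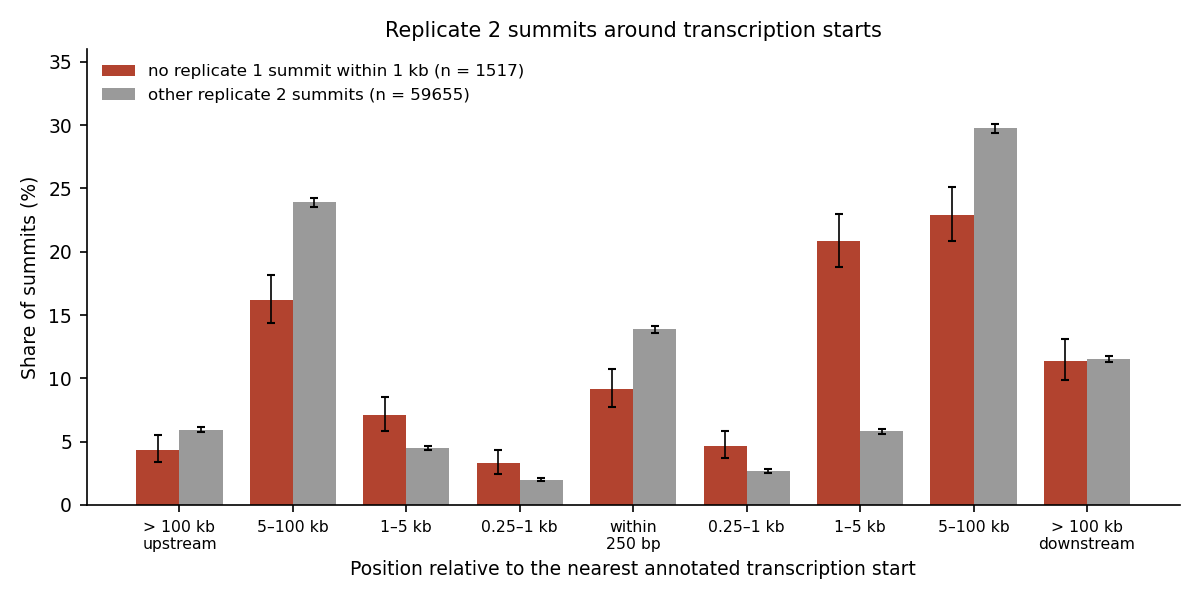
Share of replicate 2 summits (%) by position relative to the nearest listed transcription start, for the 1517 members in red and the 59655 other replicate 2 summits in grey, with exact 95% intervals. From 1 to 5 kb downstream the shares are 20.8% and 5.81%, and within 250 bp of the start 9.16% and 13.9%.

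The 139 members at starts belonged to 137 genes and had a median score of 31.1, which is above the median of all members. After Txnip, Mknk2, Plk2, Clec14a, Ubb and Klf3, the highest members within 1 kb of a gene end were at Cebpd, a transcription factor of acute responses, with a score of 85.1, and at Actg1, cytoplasmic gamma actin, with 81.6. Hes1, a transcriptional repressor induced by Notch, had a member 6 bp inside its end with 81.3, and Vasn, a membrane protein that binds TGF-beta, one with 76.5. At 9 of these 10 genes the member lay inside the gene, the exception being Clec14a. The nearest replicate 1 summit was 1054 to 3912 bp away.

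Chained at 10 kb, the 1517 members formed 1151 groups, of which 909 were single members, 170 were pairs and 72 held 3 or more, with 268 members in those 72. Another member lay within 10 kb of 608 (40.1%, exact interval 37.6 to 42.6%), and within 1 kb of 299 (19.7%). Of all replicate 2 summits, 69.7% had another replicate 2 summit within 10 kb and 17.6% within 1 kb. These shares are unlike: members were counted against the 1517 members alone, and all summits against the denser list of 61172. They do not show whether members lie closer together or farther apart than other summits.

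Foxp1, a forkhead gene of lung epithelium and mesenchyme, held 8 members within 15359 bp of chromosome 6. Their scores were 5.66 to 20.3. Within that stretch the highest summit scored 150.3 in replicate 2 and 271.1 in replicate 1. In the region with 5 kb added on either side, the highest scored 171.4 and 307.6. All 8 were thus far below the highest summits of the region, while the highest of them, 20.3, was above 2 matched replicate 2 summits to the right of them, the higher of which scored 19.8. Of them, 7 lay between positions 99023150 and 99029054.

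Erg, an ETS transcription factor of endothelium, held 7 members over 25276 bp of chromosome 16 with scores of 3.10 to 19.1. Here both lists were long, with 14 replicate 2 and 14 replicate 1 summits in that stretch. With 5 kb added on either side there were 15 and 16. At Dusp6, a phosphatase that limits ERK signalling, 6 members spread over 13743 bp and scored 5.60, 41.0, 6.13, 9.56, 53.8 and 28.6 from left to right. The 2 highest of these members stood on either side of the cluster's centre. Its stretch held 9 replicate 2 and 3 replicate 1 summits, or 12 and 6 with 5 kb added on either side. At Bahcc1, 6 members lay within 5220 bp, led by one of 62.8, the other 5 scoring 3.90 to 6.67. Every base of that stretch lay within 1 kb of a member, so the rule fixed that replicate 1 had no summit in it.

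**Figure D4:**
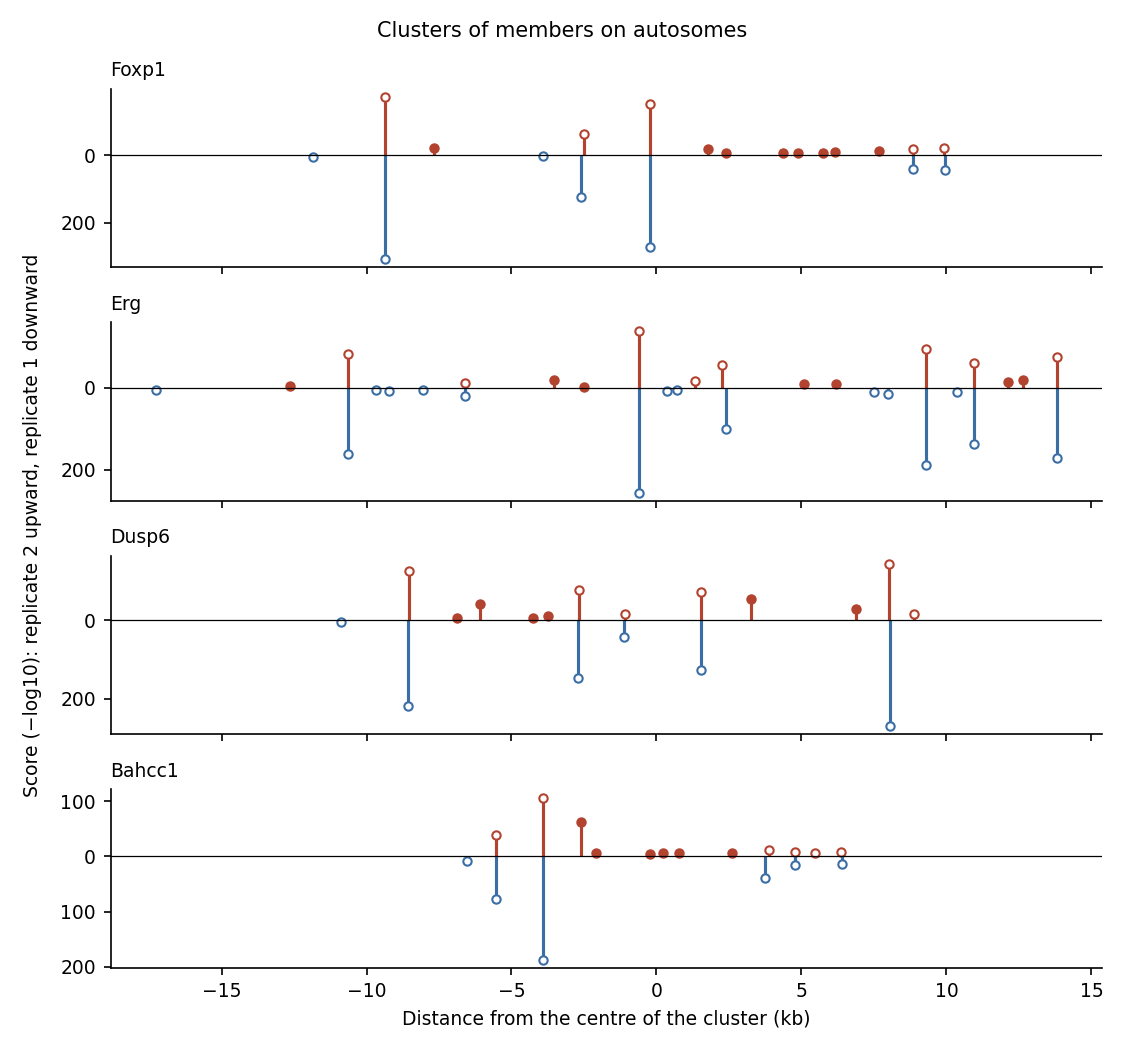
Summits of replicate 2 (red, upward) and replicate 1 (blue, downward) in 4 autosomal clusters, at Foxp1, Erg, Dusp6 and Bahcc1, by distance from the cluster's centre (kb); heights are the authors' −log10 scores, whose size is not comparable between lists. Filled red points have no replicate 1 summit within 1 kb, and open points are all others. At Bahcc1 no replicate 1 summit stands between the outermost of the 6 filled points. The rule fixed this, since every base there lies within 1 kb of a filled point.

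By nearest gene end within 100 kb, 1334 members were assigned to 920 protein-coding genes, 4.2% of 21883. Of these, 90 genes (0.411%) had 3 or more members. Meis1, a homeobox cofactor of Hox proteins, led with 11 members among 37 replicate 2 and 52 replicate 1 summits. Nfib had 9 among 72 and 97, and Tcf4, a basic helix-loop-helix factor, had 8 among 47 and 63. Zfp217, a zinc finger gene, had 7 among 27 replicate 2 and 30 replicate 1 summits. Groups of 6 were assigned to Dusp6, to the tight junction gene Tjp1, to the zinc finger repressor gene Zeb2, to Bahcc1 and to the adaptor gene Skap2.

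Rbms1, Zfp36l2, Mbnl1, Zfp608, Gm38821 and Clec2d had 5 each. Ppp1r3c and Erg also had 5, with lower summed scores, and were left out of the 15 genes by that tie rule. Only members assigned by nearest gene end within 100 kb are counted here, so a count can be below that of a cluster. It was 5 against 7 at Erg and 3 against 8 at Foxp1. Zfp36l2, which encodes an RNA decay factor, had its 5 among 14 replicate 2 summits and 16 replicate 1 summits, and Mbnl1, a splicing regulator, had its 5 among 25 and 40. The highest single member at any of these 15 genes was that of Nfib with 111.3, followed by those of Tjp1 with 84.9, Rbms1 with 68.0, Mbnl1 with 67.6 and Bahcc1 with 62.8.

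Of the 10 marker genes with a member nearby, 7 were endothelial. Within 5 kb of an end, 674 protein-coding genes (3.08%) had a member. The share was higher with more replicate 2 summits in that window, at 0.483% of genes with 1 summit, 4.26% with 2, 12.5% with 3 or 4 and 38.3% with 5 or more. Of 13 endothelial markers 7 had a member (53.8%). Their windows held 57 replicate 2 summits in all, of which 9 were members (15.8%), against 2.48% of all replicate 2 summits. Of 12 fibroblast markers 2 had a member and of 9 smooth muscle and pericyte markers 1. In their windows 2 of 31 and 1 of 10 replicate 2 summits were members. None was found at 4 lymphatic, 12 epithelial, 4 mesothelial, 11 blood and immune, 7 cartilage and skeletal muscle, 5 cardiac, 5 liver and gut, and 5 neuronal and glial markers. The epithelial windows held 28 replicate 2 summits and the lymphatic ones 15. At the share of 2.48% over all replicate 2 summits, 0 members among so few is not unusual. The other lists had still fewer, with 6 at mesothelial, 3 at blood and immune, 2 at cartilage and skeletal muscle, 2 at liver and gut and 3 at neuronal and glial markers. The cardiac windows held 0, so none could be a member there.

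Among the endothelial genes, Sox17, a transcription factor of arteries, had members of 60.3 and 8.20 inside the gene. Cdh5, the adhesion molecule of endothelial junctions, had one of 38.8 at 4751 bp outside the gene, and Ednrb, an endothelin receptor, one of 31.6 at 1174 bp from its end. Emcn, a sialomucin of capillaries and veins, had one of 27.8 at 50 bp outside its end, in the promoter printed above, and one of 11.1 inside the gene.

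S1pr1, a sphingosine phosphate receptor, had a member of 21.4, Kdr, the main VEGF receptor, one of 16.9, and Tek, the angiopoietin receptor, one of 11.4. At Kdr and Tek the nearest replicate 1 summits scored 189.7 and 171.9, so these members flanked some of the higher sites of replicate 1. These 7 genes had 3 to 8 replicate 2 summits in the window. Of all protein-coding genes, 12.5% of those with 3 or 4 and 38.3% of those with 5 or more had a member. Whether summit number accounts for the endothelial share was not tested. Pdgfra, the receptor of fibroblast precursors, had a member of 6.67, Tcf21, a transcription factor of lung mesenchyme, one of 9.77, and Acta2, smooth muscle actin, one of 8.36.

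The members that stood alone had another make-up: 18 of the 53 beyond 5 kb lay on the X chromosome (34.0%, exact interval 21.5 to 48.3%), against 12 of the other 1464 members (0.820%) and 2.04% of all replicate 2 summits. They were low, with a median score of 7.23 over the 53, against 14.1 for the members with replicate 1 nearer. The interval treats summits as independent, although 13 of the 18 on X lay in the gene Firre.

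Firre, a long noncoding RNA gene of the X chromosome that escapes X inactivation and takes part in folding the inactive X, held 13 of them. Firre spans positions 50563120 to 50635321. Inside it replicate 2 had 14 summits and replicate 1 had 1, and that 1 was matched by the rightmost replicate 2 summit, with scores of 14.8 in both lists. The 13 members scored 5.60 to 13.4 with a median of 7.23, and 11 of them formed the largest cluster of all, 22845 bp long, in which replicate 1 had no summit. The rule fixed part of that absence, since replicate 1 can have no summit within 1 kb of a member. A further member, of 7.78, lay to the left of the gene at 50551352.

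**Figure D5:**
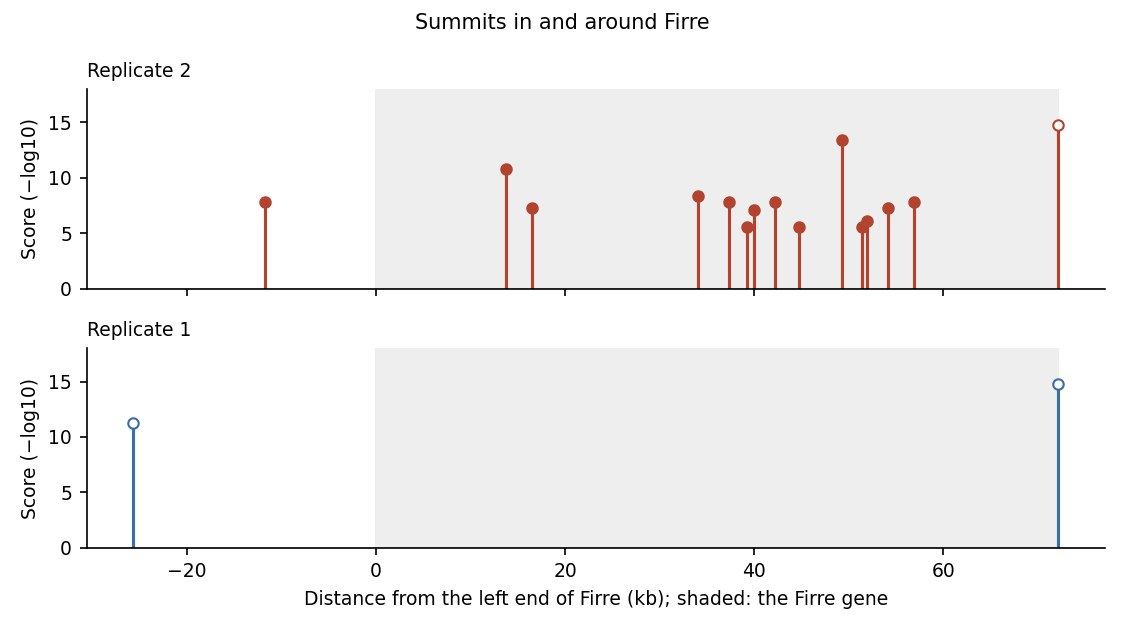
Summits of replicate 2 (upper) and replicate 1 (lower) in and around Firre, by distance from its left end (kb), with the gene shaded; heights are the authors' −log10 scores. Filled points are the summits with no replicate 1 summit within 1 kb: 13 inside the gene and 1 to its left.

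Other noncoding genes tied to X inactivation held members too. The gene 4933407K13Rik, at the tandem repeat Dxz4 where the inactive X is folded, contained 2, of 4.60 and 5.10, at 30552 and 19747 bp from replicate 1. Xist, whose RNA coats the inactive X, and Tsix, which overlaps it on the other strand, shared 2 members of 6.13 and 9.56, of which the first lay 5580 bp from replicate 1. The lists do not give strand, so Xist and Tsix cannot be told apart. Replicate 1 also had 1 summit at each place, of 26.3 in 4933407K13Rik and of 16.2 in Xist and Tsix. The highest replicate 2 summits there, of 15.5 and 28.6 in that order, were not members. The remaining isolated X member was 97 bp from an end of Pdzd4, with 5.10.

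On the Y chromosome the longer list was that of replicate 1. Replicate 2 had 1 Y summit, at position 90836407, matched by replicate 1 at 3 bp, and replicate 1 had 14. Among the replicate 1 summits were those at 99 bp from an end of Kdm5d, 58 bp from Eif2s3y, 64 bp from Uty and 72 bp from Ddx3y, the Y-linked genes expressed in most male tissues, with scores of 20.7, 11.4, 19.1 and 31.3. Replicate 2 had no summit at these genes. No source used here gives the sex of the pooled embryos, and its part in the X and Y differences was not tested. Without the 13 members in Firre, the X share of all members was 1.13%, against 1.98% with them.

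The other 35 isolated members were spread over the autosomes, and 17 of them (48.6%, exact interval 31.4 to 66.0%) lay within 1 kb of a protein-coding gene end. The same share was 17.3% over all members and 19.0% over other replicate 2 summits. Only 6 of the 35 had a score of at least 10. The highest, of 43.1, lay on chromosome 6 at position 51173165, 49792 bp from Gm38821.

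Of those at gene ends, one of 8.96 lay 41 bp inside Wnt3a, a WNT ligand, with replicate 1 at 16267 bp. One of 7.78 lay 34 bp inside Ptger4, a prostaglandin receptor gene, with replicate 1 at 54411 bp. One of 8.20 lay 41 bp inside the forkhead gene Foxs1, with replicate 1 at 7504 bp, and one of 9.56 lay 90 bp inside Myrf. The member farthest from replicate 1, at 1409709 bp, lay on chromosome 16 at position 61377196 in the pseudogene Gm9027 and scored 5.48.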

How the data were processed

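Mouse lungs at E18.5 were profiled by FOXF1 ChIP-seq with MNase and sonicated chromatin in 2 replicates and a 2% input. The deposited summit lists hold 1 base per peak with a score on the −log10 scale that the authors' caller wrote; whether it is a p or a q value is not stated. MACS2 and mm10 are named per the submitters' processing notes, and each replicate was called against the control, per the peak names in the deposited lists. No source used here gives the read depth, and the input was not analysed by itself. Score sizes depend on depth, so where scores of both lists are given side by side their sizes are not comparable.

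Nuclear summits were matched by distance between summit bases with Python 3.11.15, numpy 2.4.6 and pandas 2.3.3, and gene ends came from RefSeq GRCm38.p6. Exact (Clopper-Pearson) 95% intervals were computed with scipy 1.17.1. The code of the matching was checked on simulated positions, where it returned 200 of 200 summits planted beyond 1 kb among 20000. Correct code had to return them, so the check does not show how well members are identified in these lists. Named members were the 12 highest scores, the 10 highest within 1 kb of a protein-coding gene end, clusters with most members, the 15 genes with most members and the listed marker genes; isolated and X, Y and noncoding loci were chosen after their values were seen. The members and lists were chosen with earlier results of these data known. A few members and loci that these rules name are not reported here.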

Additional observations from a re-analysis of the deposited data

Results flagged for a closer look

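The mitochondrial genome, which the matching left out, had 6 summits in replicate 2 and 10 in replicate 1. It was singled out because it is signal outside the nuclear lists. The replicate 2 scores were 3.28 to 14.0, the highest replicate 1 score was 43.4, and 1 of the 6 replicate 2 summits had no replicate 1 summit within 1 kb.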

How the results depend on the processing

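Of 65 alternative values, 22 moved by less than their margin, 43 moved further and 0 changed sign. Counts, shares and medians of positive scores cannot change sign. The cause of the shifts was not tested beyond what each setting changes by its construction. The 1517 members became 4337 with a distance of 500 bp, 272 at 2 kb, 53 at 5 kb, 922 with a score of at least 10, and 5569 against a replicate 1 list shortened to its highest summits, as many as in replicate 2. In that order, the genes with a member within 5 kb (674) became 1834, 147, 27, 433 and 2693, and 254 or 1112 with windows of 1 kb or 20 kb. The median score (13.2) became 10.5, 9.999 and 7.23 at 500 bp, 2 kb and 5 kb, 15.1 and 22.9 with scores of at least 5 and 10, and 7.78 with the shortened list. The share near a gene end (17.3%) became 22.0%, 22.8% and 34.0% at the 3 distances, 23.6% with the shortened list, 49.4% with a 5 kb window and 23.9% with all annotated genes. The share deep inside genes (55.3%) became 49.5%, 46.0% and 13.2% at the 3 distances and 48.0% with the shortened list. The share over 100 kb from a gene end (12.1%) became 35.8% at 5 kb, and 22.5% when counted over 50 kb. The share with another member within 10 kb (40.1%) became 35.7%, 34.9% and 24.5% at the 3 distances, 36.5% and 24.8% with the score minimums, 28.4% with the shortened list, 26.2% with neighbours within 1 kb merged and 48.9% at 50 kb. The X share (1.98%) became 6.99% at 2 kb, 34.0% at 5 kb, 0.868% with a score of at least 10, 3.21% with the shortened list and 1.13% without Firre, an alternative chosen after seeing the data.

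No paired analysis was possible because no result comes from a test and the replicates were the sets compared. Leaving out a replicate gives no value, since the rule needs both lists. No source used here gives the read depth, and how far it sets the difference between the lists was not tested.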
